A study of Mus musculus with 6 samples.

Results

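The tubulins and molecular motors were followed as the 42 probes, of 40 genes, whose single gene symbol in the platform annotation began with Tuba, Tubb, Tubg, Kif, Dync, Dynl, Dnah or Klc, or with Myo and a digit. They are 42 of the 6856 probes of the value table. Tubb3, Kif11, Kif23, Myoc, Myod1 and Myog were left out by that definition, which uses gene symbols and no measured value. The definition was set with earlier results of these data known. The members were 6 probes of 5 alpha tubulin genes, 2 beta tubulin probes, 20 kinesin probes with a role given below, 1 kinesin adaptor, 2 dynein intermediate chains, 1 dynein light chain, 9 probes of 8 myosin genes, and Kif8, which had no value. No named probe used here met the definition for gamma tubulins, axonemal dyneins or kinesin light chains.

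The study measured neocortex RNA of 6 null mutant embryos on the C57BL/6 background at embryonic day 14, described in the labels as synaptically silent. Each embryo was hybridised on its own array of 2 colours, with RNA pooled from 6 wild-type animals of that age, background and brain region in the other channel. Mutant RNA was labelled with cy3 on 3 arrays (replicates 1 to 3) and with cy5 on the remaining 3 (replicates 4 to 6). The pool counts as 1 control sample. The test therefore sets each ratio against 0, the variation among wild-type animals does not enter it, and its precision is limited by the number of arrays.

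Microtubules are hollow filaments of alpha and beta tubulin. Kinesins carry cargo along them, most towards the plus end and thus down the axon, while cytoplasmic dynein moves towards the minus end and the cell body. Unconventional myosins move on actin filaments instead. In the embryonic cortex these proteins serve the division of progenitors, the migration of young neurons and the outgrowth of axons and dendrites.

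The values are log ratios as the authors deposited them, taken here as log2, and are read as null mutant over wild-type pool, so that values above 0 mean more RNA in the mutant. Base and direction are assumptions. The reading of the direction rests on Xist, a long RNA made from the silenced X, which stood at 0.61, 0.71, 0.31 and 0.24 on replicates 1 to 4 and at -3.17 and -2.58 on replicates 5 and 6. A mutant without Xist can lie that far below a pool of both sexes, but the sexes in the pool are not known. The Y-linked genes did not move together on replicates 5 and 6, where Eif2s3y stood at 0.17 and -0.42, Kdm5d at 0.18 and 0.16, Uty at -0.13 and 0.26 and Zfy1 at -0.62 and -0.88, so they give the reading no second basis. Nor did they on replicates 1 to 4. There Eif2s3y stood at 0.28, 0.15, -1.34 and -0.64, Kdm5d at -0.36, -0.78, 0.34 and 0.093, and Zfy1 at 0.088, -0.22, 1.52 and 1.79. Uty had -0.11, 0.72 and 0.025 on replicates 1, 3 and 4. The sign of replicates 1 to 3 relative to the others was not settled, so estimates of members with these 3 arrays turned are given as well. The arrays held 4396 to 5678 values each, and the SD over an array ran from 0.35 on replicate 2 to 1.09 on replicate 3. The median over all probes was -0.23 on replicate 3 and -0.13 on replicate 4, and between -0.0049 and 0.047 on the others. A typical probe of replicates 3 and 4 thus lay below 0. Replicates 3 and 4 stood apart, with Pearson's r = 0.59 between them over 3875 shared probes and r from -0.37 to -0.080 with the other 4 arrays, so member estimates are also given without them. Among the other 4 arrays, r was 0.36 between replicates 1 and 2 and 0.21 between replicates 5 and 6. Across these pairs it ran only from -0.074 to 0.055, so the 4 arrays did not form a set of like arrays. By rank (Spearman's rho) the values across these pairs were all below 0, from -0.27 to -0.070. Within the pairs, each of 1 dye orientation, rho was 0.53 for replicates 1 and 2 and 0.35 for replicates 5 and 6. Whether this comes from the sign of replicates 1 and 2 was not tested. Ratios carry no level, so the labelled tissue could not be checked by the presence of its markers. In RNA of a whole tissue, fewer cells of a type and less RNA per cell cannot be told apart.

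Of the 42 member probes, 23 had a value on all 6 arrays and 34 had at least 2 values in each dye orientation, which the test required. None of the 34 differed from the wild-type pool past an adjusted p of 0.05 in limma, where the background over all 4958 probes tested was 0 probes (0.0%). At an unadjusted p under 0.05 there were 0 members, against 88 of 4958 probes (1.77%). The smallest adjusted p of a member was 0.921. The fitted ratios ran from -0.80 to 0.21, with 14 above 0 and 20 below, and a median of -0.068. Over all probes tested 2145 lay above 0 and 2813 below, with a median of -0.033. The median size, whichever the sign, was 0.107 for the members and 0.131 for all probes. The 95% intervals of all 34 ratios held 0. The width to either side of the estimate was 0.25 for Myo1c, the narrowest, 0.40 at the median and 1.52 for Tuba4a, the widest. Ratios anywhere inside an interval could not be told apart by the test. The intervals are not adjusted for the number of probes tested, so differences larger than these widths could also fail the adjusted threshold.

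With replicates 1 to 3 turned, 0 of the 34 members passed, against 0 of 4958 probes (0.0%), and 1 member had an unadjusted p under 0.05, against 228 probes (4.6%). That median was 0.012, with 19 members above 0 and 15 below. Without replicates 3 and 4, 0 members passed, against 1 of 4728 probes (0.0212%). In this fit 7 of 34 members had an unadjusted p under 0.05, a share of 20.6% against 13.6% of all probes, namely Tuba4a, Tuba1c, Kif1c, Kif3c, Myo1f, Myo18a and 1 of the probes of Myo9b. The median of the members was then 0.029, with 19 above 0 and 15 below. These 4 arrays with replicates 1 and 2 turned, a reading added after the data were seen, gave 0 of 34 members past the threshold, against 0 of 4728 probes (0.0%). Here 6 members had an unadjusted p under 0.05, a share of 17.6% against 23.4% of all probes, namely Kif1c, Kif17, Myo18a, Tuba1a, Tuba8 and Tubb4a. With arrays weighted in limma, 0 members passed, against 2 of 4958 probes (0.0403%), and 4 had an unadjusted p under 0.05, against 600 probes (12.1%). The weights were 0.10 and 0.31 for replicates 3 and 4 and from 1.40 to 4.01 for the others. The weighted fit is therefore close to the fit without replicates 3 and 4 and is no separate check of it.

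**Figure D1:**
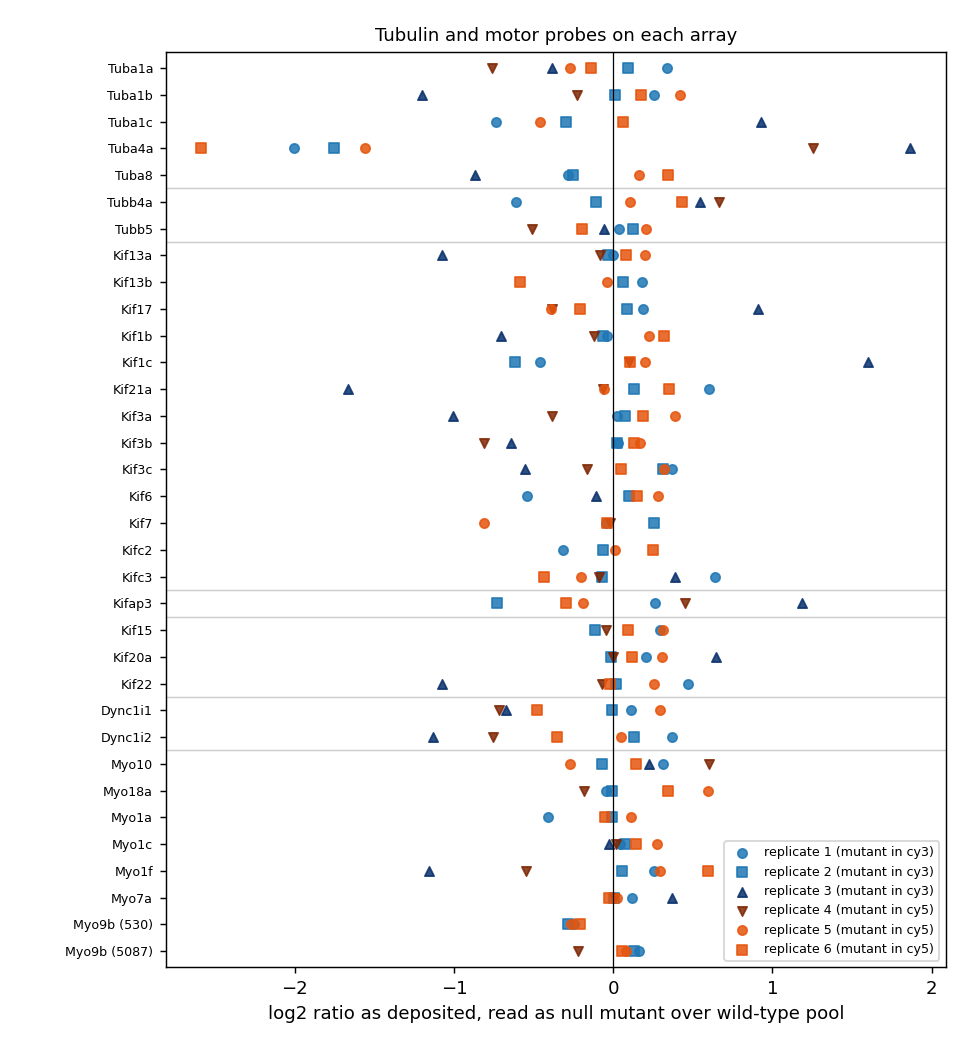
Deposited log2 ratio (x axis, read as null mutant over wild-type pool) of the 34 tested tubulin and motor probes (y axis, grouped by role) on each array. Each point is 1 array, blue with the mutant in cy3 and orange to brown with the mutant in cy5, and triangles mark replicates 3 and 4. Tuba4a reaches from -2.59 to 1.87, and for many members the triangles of replicates 3 and 4 lie apart from the other points.

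The alpha tubulins held the member with the widest spread of all, Tuba4a, a broadly expressed alpha tubulin whose gene does not encode the terminal tyrosine of most other alpha tubulins. Its probe 1159 stood at -2.003, -1.75, 1.87, 1.25, -1.56 and -2.59 on replicates 1 to 6. It was thus far below 0 on replicates 1, 2, 5 and 6, in both dye orientations, and far above 0 on replicates 3 and 4. Among all values of an array it lay at the percentiles 0.384, 0.289, 0.704 and 0.352 on replicates 1, 2, 5 and 6, and at 94.1 and 95.9 on replicates 3 and 4. The fitted ratio over all 6 arrays was -0.80 ± 0.64 (SE, n = 6; adjusted p = 0.921) with a 95% interval of -2.32 to 0.72, and -0.17 with replicates 1 to 3 turned. It was -1.42 without replicate 3 alone and -0.39 without replicate 6 alone, the extremes when 1 array was left out. Without replicates 3 and 4 it was -1.97 ± 0.19 (SE, n = 4; adjusted p = 0.126), which by size was in place 4 of 4728 probes and by p in place 8, and it did not pass. That place rests on the deposited sign of replicates 1 and 2, since with them turned the ratio over these 4 arrays was -0.097, in place 3028 of 4728 by size. The other Tuba4a probe, 3122, had no value on any array, so no second probe could be set beside it.

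Tuba1a, the alpha tubulin gene of newly born neurons, stood at 0.34, 0.092, -0.38, -0.76, -0.27 and -0.14 on replicates 1 to 6. It was above 0 on both of the first arrays and below 0 on the other 4. Its ratio was -0.19 ± 0.15 (SE, n = 6), or -0.20 with replicates 1 to 3 turned and 0.0057 ± 0.078 (SE, n = 4) without replicates 3 and 4. Tuba1b, an alpha tubulin of nearly all cells, had 0.26, 0.014, -1.20, -0.23, 0.42 and 0.17. Here only replicates 3 and 4 were below 0, and the ratio was -0.094 ± 0.21 (SE, n = 6), or 0.22 with replicates 1 to 3 turned and 0.22 ± 0.085 (SE, n = 4) without replicates 3 and 4. Tuba1c, a close relative, was high on replicate 3 instead, with -0.74, -0.30 and 0.93 on replicates 1 to 3 and -0.46 and 0.064 on replicates 5 and 6. Its ratio was -0.12 ± 0.27 (SE, n = 5), or -0.080 with replicates 1 to 3 turned and -0.36 ± 0.13 (SE, n = 4) without replicates 3 and 4, and it was 0.059 without replicate 1. Tuba8, a divergent alpha tubulin, had -0.29, -0.25 and -0.87 on replicates 1 to 3 and 0.16 and 0.34 on replicates 5 and 6, so that its sign followed the dye orientation. Its ratio was -0.11 ± 0.15 (SE, n = 5) as deposited, or 0.36 with replicates 1 to 3 turned and -0.0090 ± 0.070 (SE, n = 4) without replicates 3 and 4. Alpha tubulin genes are related in sequence. Since probe sequences were not used here, a share of each signal may come from another alpha tubulin. How large that share is was not tested.

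The promoters of the 3 alpha tubulins with a value on every array are shown, Tuba4a for having the widest spread and the others as its relatives measured on every array. Each window holds 250 bases before and 50 after the transcription start that RefSeq gives on GRCm38.p6, with 5′ to the left on the gene's own strand. Capitals mark CCAAT and GGGCGG on either strand. TATAAA was searched too and was in none of the windows printed here.
Tuba4a (chr1:75219245-75219544, minus strand): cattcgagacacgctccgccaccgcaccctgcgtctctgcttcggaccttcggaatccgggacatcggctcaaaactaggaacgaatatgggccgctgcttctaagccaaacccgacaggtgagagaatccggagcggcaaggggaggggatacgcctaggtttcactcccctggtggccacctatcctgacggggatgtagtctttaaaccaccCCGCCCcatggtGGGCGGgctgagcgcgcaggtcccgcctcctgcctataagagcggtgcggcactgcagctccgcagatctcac
Tuba1a (chr15:98953452-98953751, minus strand): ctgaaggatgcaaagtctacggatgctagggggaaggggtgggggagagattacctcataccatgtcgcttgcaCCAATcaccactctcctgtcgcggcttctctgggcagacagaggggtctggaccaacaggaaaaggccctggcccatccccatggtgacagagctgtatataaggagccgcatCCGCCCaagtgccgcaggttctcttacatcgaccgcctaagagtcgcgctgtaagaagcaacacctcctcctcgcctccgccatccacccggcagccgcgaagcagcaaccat
Tuba1b (chr15:98934341-98934640, minus strand): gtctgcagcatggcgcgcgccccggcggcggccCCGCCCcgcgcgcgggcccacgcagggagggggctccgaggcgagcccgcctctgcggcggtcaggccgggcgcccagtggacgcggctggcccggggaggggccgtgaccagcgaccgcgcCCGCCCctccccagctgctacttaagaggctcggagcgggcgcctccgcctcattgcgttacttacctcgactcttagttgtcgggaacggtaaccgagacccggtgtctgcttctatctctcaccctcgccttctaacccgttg
Tuba4a and Tuba1b held GGGCGG at 2 places each and no CCAAT, while Tuba1a held 1 of each. Of 42 promoter windows found for 34 of the 40 member genes, 26 held GGGCGG, a share of 61.9%, against 35.7% of all 32851 windows. CCAAT was in 13 windows of members, or 31.0%, against 37.4% of all, and TATAAA in 3, or 7.14%, against 13.6%. The 32851 windows are those of the whole reference, not only of genes on these arrays, so the shares compare unlike sets. These matches describe the letters of the windows and say nothing of binding.

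The beta tubulins lay closer to 0 than Tuba4a. Tubb4a, a beta tubulin known mainly from the nervous system, stood at -0.61, -0.11, 0.55, 0.66, 0.11 and 0.43 on replicates 1 to 6. It was below 0 on replicates 1 and 2 and above 0 on the other 4, and highest on replicates 3 and 4. Its ratio was 0.17 ± 0.17 (SE, n = 6), or 0.23 with replicates 1 to 3 turned and -0.044 ± 0.12 (SE, n = 4) without replicates 3 and 4. Tubb5, the beta tubulin common in dividing and young cells, had 0.036, 0.13, -0.058, -0.51, 0.21 and -0.19, with 3 arrays on each side of 0. Its ratio of -0.066 ± 0.13 (SE, n = 6) had a 95% interval of -0.37 to 0.24, and was -0.10 with replicates 1 to 3 turned and 0.043 ± 0.092 (SE, n = 4) without replicates 3 and 4.

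**Figure D2:**
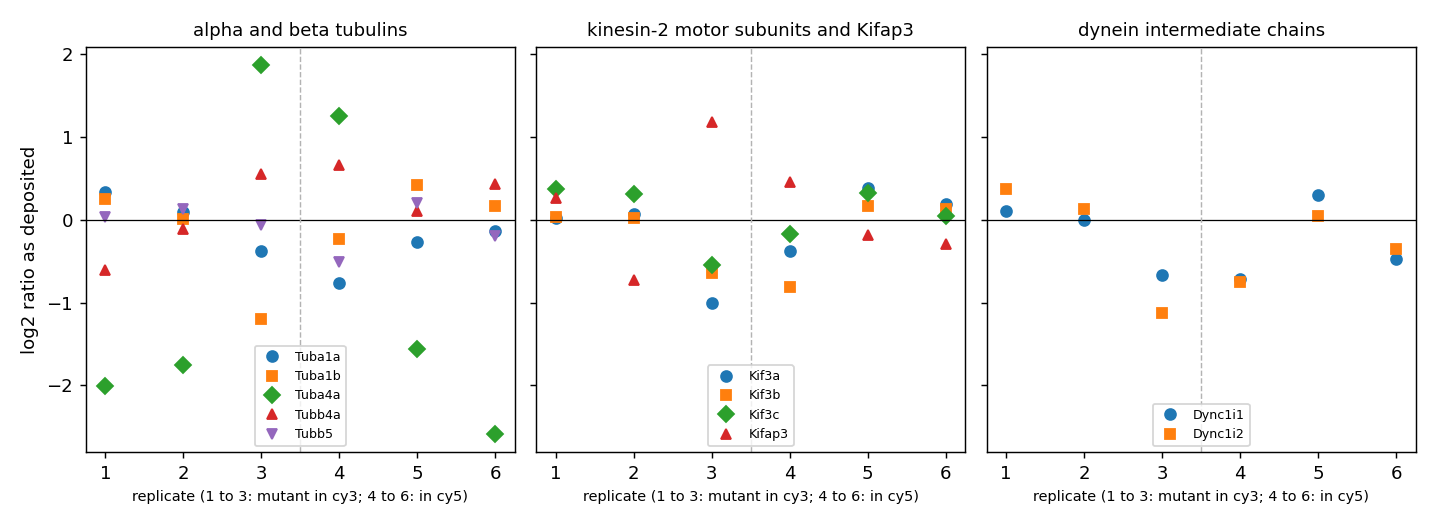
Deposited log2 ratio (y axis) on each of the 6 arrays (x axis; the dashed line parts arrays with the mutant in cy3 from those with it in cy5) for tubulins, kinesin-2 subunits and dynein intermediate chains with a value on every array. Tuba4a and Kifap3 are highest on replicate 3, where Dync1i2, Tuba1b and Kif3a are at -1.13, -1.20 and -1.005.

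Kinesin-2 is the motor complex of intraflagellar and axonal transport, in which Kif3a joins Kif3b or Kif3c and the adaptor Kifap3 binds the tails of the motors. All 4 genes had a value on every array. Kif3a stood at 0.024, 0.073, -1.005, -0.38, 0.39 and 0.19 on replicates 1 to 6, Kif3b at 0.029, 0.025, -0.64, -0.81, 0.17 and 0.13, and Kif3c at 0.37, 0.31, -0.55, -0.17, 0.32 and 0.048. Each of the 3 motors was above 0 on replicates 1, 2, 5 and 6 and below 0 on replicates 3 and 4. Kifap3 had 0.26, -0.73, 1.18, 0.45, -0.19 and -0.30, and so lay above 0 on replicates 3 and 4 where the motors lay below. The ratios were -0.12 ± 0.19 (SE, n = 6) for Kif3a, -0.18 ± 0.18 (SE, n = 6) for Kif3b and 0.055 ± 0.16 (SE, n = 6) for Kif3c. That of Kifap3 was 0.11 ± 0.25 (SE, n = 6), and the adjusted p was 0.921, 0.921, 0.942 and 0.928 in the order named. Without replicates 3 and 4, Kif3a was at 0.17 ± 0.072 (SE, n = 4), Kif3b at 0.088 ± 0.063 (SE, n = 4) and Kif3c at 0.26 ± 0.078 (SE, n = 4), against -0.24 ± 0.18 (SE, n = 4) for Kifap3, and none passed. With replicates 1 to 3 turned the ratios were 0.18, 0.012, 0.012 and -0.13.

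A layout with 1 sign on replicates 1, 2, 5 and 6 and the other on replicates 3 and 4 was found in 6 of the 23 members with all values, a share of 26.1%, against 464 of 3763 probes (12.3%). These were Tuba4a, which was below 0 on the 4 arrays, and Tuba1b, Kif3a, Kif3b, Kif3c and Myo1f, which were above 0 on them. The layout depends on the deposited signs, and with replicates 1 to 3 turned it was found in 0 of the 23 members, against 98 of 3763 probes (2.6%). A single sign on replicates 1, 2, 5 and 6 was found in 9 of 34 members, a share of 26.5%, against 811 of 4728 probes (17.2%). With replicates 1 and 2 turned it was 10 of 34, a share of 29.4%, against 1395 probes (29.5%). Replicates 3 and 4, where the medians over all probes were -0.23 and -0.13, were also the lowest for the neuron markers. Of 9 listed, 7 had a probe and 6 were tested, all 6 with ratios below 0, or 1 with replicates 1 to 3 turned, and their median over replicates 1 to 6 was -0.069, 0.067, -1.13, -0.33, 0.22 and -0.13. Of 8 tested markers of progenitors 3 had ratios above 0 and 5 below, and their median over replicates 1 to 6 was 0.29, 0.26, -0.23, -0.072, -0.029 and -0.17. The part of either in the values of the tubulins and motors was not tested.

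The promoters of the 3 kinesin-2 motors are shown since these genes shared their layout of deposited signs over the arrays, with the same windows and marks as above.
Kif3a (chr11:53567119-53567418, plus strand): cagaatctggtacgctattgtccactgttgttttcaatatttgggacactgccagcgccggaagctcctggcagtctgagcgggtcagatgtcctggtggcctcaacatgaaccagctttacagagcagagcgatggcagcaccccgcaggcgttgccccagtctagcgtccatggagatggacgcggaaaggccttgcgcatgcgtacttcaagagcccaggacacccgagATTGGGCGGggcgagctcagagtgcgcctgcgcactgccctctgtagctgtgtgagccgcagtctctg
Kif3b (chr2:153291166-153291465, plus strand): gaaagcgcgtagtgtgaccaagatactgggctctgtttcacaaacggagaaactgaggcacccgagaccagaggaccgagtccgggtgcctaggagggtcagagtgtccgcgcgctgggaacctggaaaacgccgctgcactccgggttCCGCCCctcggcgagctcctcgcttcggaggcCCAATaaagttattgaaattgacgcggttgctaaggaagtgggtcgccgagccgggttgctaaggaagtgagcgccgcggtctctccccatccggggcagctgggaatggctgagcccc
Kif3c (chr12:3364882-3365181, plus strand): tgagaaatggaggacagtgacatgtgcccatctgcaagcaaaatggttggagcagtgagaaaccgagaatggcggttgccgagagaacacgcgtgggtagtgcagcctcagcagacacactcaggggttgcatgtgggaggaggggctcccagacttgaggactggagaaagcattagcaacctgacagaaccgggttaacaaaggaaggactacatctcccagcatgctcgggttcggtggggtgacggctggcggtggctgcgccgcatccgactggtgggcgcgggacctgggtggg
Kif3a and Kif3b held 1 CCAAT and 1 GGGCGG each, which overlap in Kif3a, and Kif3c held neither.

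Among the other kinesins outside the mitotic list, leaving out replicate 3 turned the sign of the ratio of Kif1c, Kif13a and Kif17, among others. Kif1c, a kinesin-3 of vesicle transport, stood at -0.46, -0.61, 1.60, 0.10, 0.20 and 0.10 on replicates 1 to 6. The value of replicate 3 was far above the rest, and the ratio of 0.16 ± 0.29 (SE, n = 6) was -0.20 without that array. It was -0.021 with replicates 1 to 3 turned and -0.19 ± 0.070 (SE, n = 4) without replicates 3 and 4. Kif13a, another kinesin-3, had -0.00018, -0.033, -1.07, -0.082, 0.20 and 0.080, with replicate 3 far below the others. Its ratio was -0.15 ± 0.17 (SE, n = 6), or 0.024 without replicate 3, 0.22 with replicates 1 to 3 turned and 0.061 ± 0.066 (SE, n = 4) without replicates 3 and 4. Kif17, a kinesin-2 homodimer known for transport into dendrites and cilia, had 0.19, 0.088, 0.91, -0.39, -0.39 and -0.21, above 0 on all arrays with the mutant in cy3 and below 0 on all with it in cy5. The ratio was 0.034 ± 0.14 (SE, n = 6) as deposited, or -0.094 without replicate 3. With replicates 1 to 3 turned it was -0.36 with an unadjusted p of 0.038 and an adjusted p of 0.972 in limma, the 1 member with an unadjusted p under 0.05 in that reading. It was -0.080 ± 0.072 (SE, n = 4) without replicates 3 and 4.

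The remaining tested members of this list were Kif1b, a kinesin-3 of organelle and synaptic vesicle precursor transport, Kif21a of the kinesin-4 family, Kif13b, Kif6, Kif7, which acts in Hedgehog signalling at the cilium, and the kinesin-14 motors Kifc2 and Kifc3. Kif21a ranged from -1.67 on replicate 3 to 0.60 on replicate 1, and Kif1b from -0.71 on replicate 3 to 0.32 on replicate 6. Kifc3 had its lowest value of -0.43 on replicate 6 and its highest of 0.64 on replicate 1. In Kif7 the lowest was -0.81 on replicate 5 and the highest 0.25 on replicate 2. Over these 4 genes and Kif6, Kif13b and Kifc2, whose values ran from -0.59 to 0.28, the arrays of each gene lay on both sides of 0. The 7 ratios ran from -0.12 ± 0.28 (SE, n = 6) for Kif21a to 0.041 ± 0.13 (SE, n = 6) for Kifc3 as deposited. The other reading of the direction put Kifc3 lowest at -0.28 and Kif1b highest at 0.21, with Kif21a at 0.19. Leaving out replicates 3 and 4 put Kif7 lowest at -0.16 and Kif21a highest at 0.26. Of the 13 tested probes of the list, 5 had a ratio above 0 and 8 below, with a median of -0.063, or 0.012 with replicates 1 to 3 turned and -0.0014 without replicates 3 and 4. On replicate 3 the median of the list was -0.55 over 11 values, against -0.10 to 0.080 on the other 5 arrays. The median over all probes of replicate 3 was -0.23.

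Mitotic kinesins act in the spindle and in cytokinesis of dividing progenitors. Kif20a, a kinesin of cytokinesis, had the smallest unadjusted p of all members, 0.146 in limma. It stood at 0.21, -0.012, 0.65, -0.0035, 0.31 and 0.12 on replicates 1 to 6, above 0 on 4 arrays and just below 0 on the other 2. The ratio for Kif20a was 0.21 ± 0.13 (SE, n = 6; adjusted p = 0.921) with a 95% interval of -0.094 to 0.52, 0.16 ± 0.079 (SE, n = 4) without replicates 3 and 4, and -0.069 with replicates 1 to 3 turned. Kif15, a spindle kinesin, had 0.29 and -0.11 on replicates 1 and 2, with -0.044, 0.31 and 0.093 on replicates 4 to 6, and a ratio of 0.11 ± 0.14 (SE, n = 5), or 0.015 with replicates 1 to 3 turned and 0.15 ± 0.099 (SE, n = 4) without replicates 3 and 4. Kif22, which binds chromosome arms, had 0.47, 0.018, -1.08, -0.072, 0.26 and -0.022. Only replicate 3 was far from 0 on the negative side, and the ratio of -0.071 ± 0.20 (SE, n = 6) was 0.15 without it, or 0.13 with replicates 1 to 3 turned and 0.18 ± 0.11 (SE, n = 4) without replicates 3 and 4. Kif14, a kinesin of cytokinesis, had 0.85 on replicate 1 and -0.56 and 0.40 on replicates 5 and 6, and was not tested. Beside these, 9 markers of cycling cells were tested, 6 with ratios above 0 and 3 below, with a median of 0.18, or -0.11 with replicates 1 to 3 turned. Their medians over replicates 1 to 6 were 0.48, 0.064, -0.0037, 0.11, 0.0020 and -0.17, and their part in the values of the mitotic kinesins was not tested. Kif11, 1 of the 9 and left out of the members by definition, stood at -1.56 on replicate 3 and between -0.15 and 0.18 on the others.

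The dynein intermediate chains link the heavy chain of cytoplasmic dynein to its cargo adaptors. Dync1i1, found mainly in neurons, stood at 0.11, -0.0079, -0.67, -0.72, 0.30 and -0.48 on replicates 1 to 6. Dync1i2, the form of most cells, stood at 0.37, 0.13, -1.13, -0.76, 0.049 and -0.35. Both were low on replicates 3, 4 and 6 and near or above 0 on replicates 1, 2 and 5. The ratios were -0.24 ± 0.18 (SE, n = 6) for Dync1i1 and -0.28 ± 0.22 (SE, n = 6) for Dync1i2, each with an adjusted p of 0.921. Without replicates 3 and 4 they were -0.020 ± 0.14 (SE, n = 4) and 0.050 ± 0.10 (SE, n = 4), and with replicates 1 to 3 turned -0.055 and -0.073. The dynein light chain Dynlt1b had -0.44 on replicate 2 and 0.14 and 0.45 on replicates 5 and 6, too few values for the test.

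**Figure D3:**
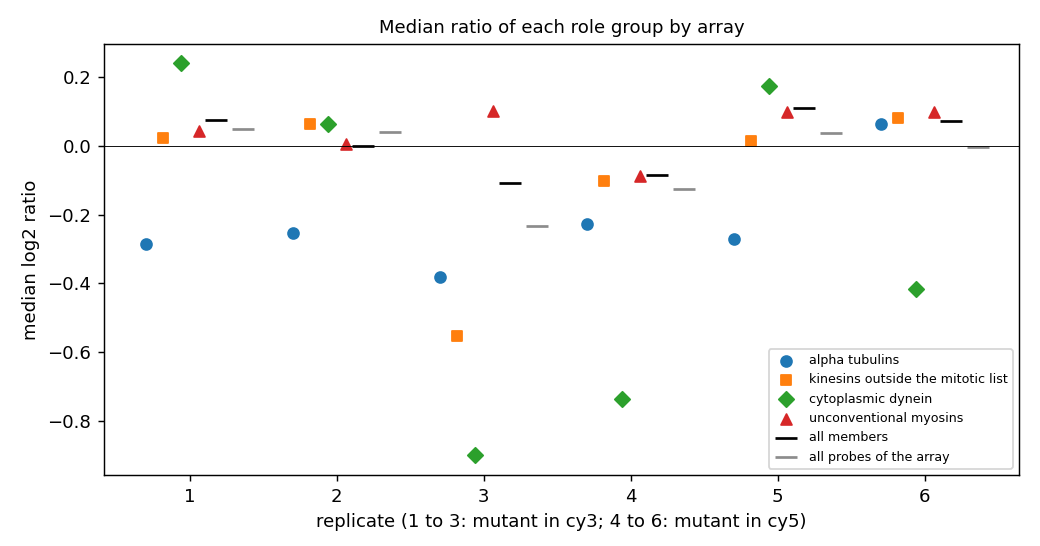
Median log2 ratio (y axis) of 4 role groups, of all tubulin and motor probes and of all probes, on each array (x axis). Both dynein intermediate chains together lie at -0.90 and -0.74 on replicates 3 and 4, while the median of the myosins stays between -0.089 and 0.10 on every array, though on replicate 3 it covers 4 of 9 probes, from -1.16 to 0.37.

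The myosins had no common direction. Of 8 tested probes 5 had a ratio above 0 and 3 below, with a median of 0.072, or 0.036 with replicates 1 to 3 turned and 0.069 without replicates 3 and 4. Myo10, a motor of filopodia, stood at 0.32, -0.073, 0.23, 0.60, -0.27 and 0.14 on replicates 1 to 6, with 4 arrays above 0 and 2 below. Its ratio was 0.16 ± 0.15 (SE, n = 6), or 0.029 ± 0.11 (SE, n = 4) without replicates 3 and 4 and 0.00013 with replicates 1 to 3 turned. Myo1c, a class I myosin of membrane traffic, had 0.042, 0.073, -0.025, 0.018, 0.28 and 0.15, above 0 on 5 of 6 arrays. Its ratio was 0.088 ± 0.11 (SE, n = 6) with a 95% interval of -0.16 to 0.34, or 0.058 with replicates 1 to 3 turned and 0.13 ± 0.067 (SE, n = 4) without replicates 3 and 4. Myo7a, known from hair cells of the inner ear, had 0.12, 0.0043, 0.37, 0.0060, 0.024 and -0.029 and a ratio of 0.083 ± 0.11 (SE, n = 6), or -0.082 with replicates 1 to 3 turned and 0.030 ± 0.066 (SE, n = 4) without replicates 3 and 4. Myo1f, a class I myosin of white blood cells, had 0.26, 0.057, -1.16, -0.55, 0.30 and 0.60. It was above 0 on 4 arrays and below 0 on replicates 3 and 4, and its ratio was -0.082 ± 0.23 (SE, n = 6), or 0.20 with replicates 1 to 3 turned and 0.30 ± 0.087 (SE, n = 4) without replicates 3 and 4. Of 7 listed markers of blood and microglia, 4 had a probe and 3 were tested, 2 with ratios above 0 and 1 below. The medians of these 3 on replicates 3 and 4 were 0.25 and 0.24. On these arrays C1qb stood at 5.06 and 2.41, Alas2 at 0.25 and 0.24 and Hba-x at -0.60 and 0.22. Their part in the Myo1f values was not tested. Myo18a, a myosin with a PDZ domain, had -0.046 and -0.0098 on replicates 1 and 2, with -0.18, 0.59 and 0.34 on replicates 4 to 6. Its ratio was 0.11 ± 0.16 (SE, n = 5), or 0.14 with replicates 1 to 3 turned and 0.22 ± 0.076 (SE, n = 4) without replicates 3 and 4. Myo1a, a class I myosin of the intestinal brush border, had -0.41 and -0.0084 on replicates 1 and 2, with 0.11 and -0.049 on replicates 5 and 6, and a ratio of -0.088 ± 0.16 (SE, n = 4), or 0.12 with replicates 1 to 3 turned.

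Myo9b, an unconventional myosin, had a pair of probes that disagreed. Probe 530 had values on 4 arrays, which were -0.25, -0.28, -0.26 and -0.21 (replicates 1, 2, 5 and 6), with an SD of 0.031 over these 4 arrays. It was the 1 member of 34 with a single sign on all arrays with a value, against 135 of 4958 probes (2.72%). With replicates 1 to 3 turned it was not among the 4 such members, against 342 probes (6.9%). Probe 5087 stood at 0.17 and 0.13 on replicates 1 and 2, with -0.22, 0.081 and 0.053 on replicates 4 to 6, above 0 on the same 4 arrays on which probe 530 was below. The ratios were -0.25 ± 0.15 (SE, n = 4; adjusted p = 0.921) for probe 530 and 0.060 ± 0.13 (SE, n = 5; adjusted p = 0.928) for probe 5087, or 0.014 and -0.088 with replicates 1 to 3 turned. They were -0.25 ± 0.064 (SE, n = 4) and 0.11 ± 0.063 (SE, n = 4) without replicates 3 and 4. Neither probe had a value on replicate 3, the widest array, but the SE in limma also draws on the spread of all probes tested. For probe 530 the same 4 values thus gave an SE of 0.15 in the first fit and of 0.064 without replicates 3 and 4. Averaged over both probes the ratio of the gene was -0.094.

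**Figure D4:**
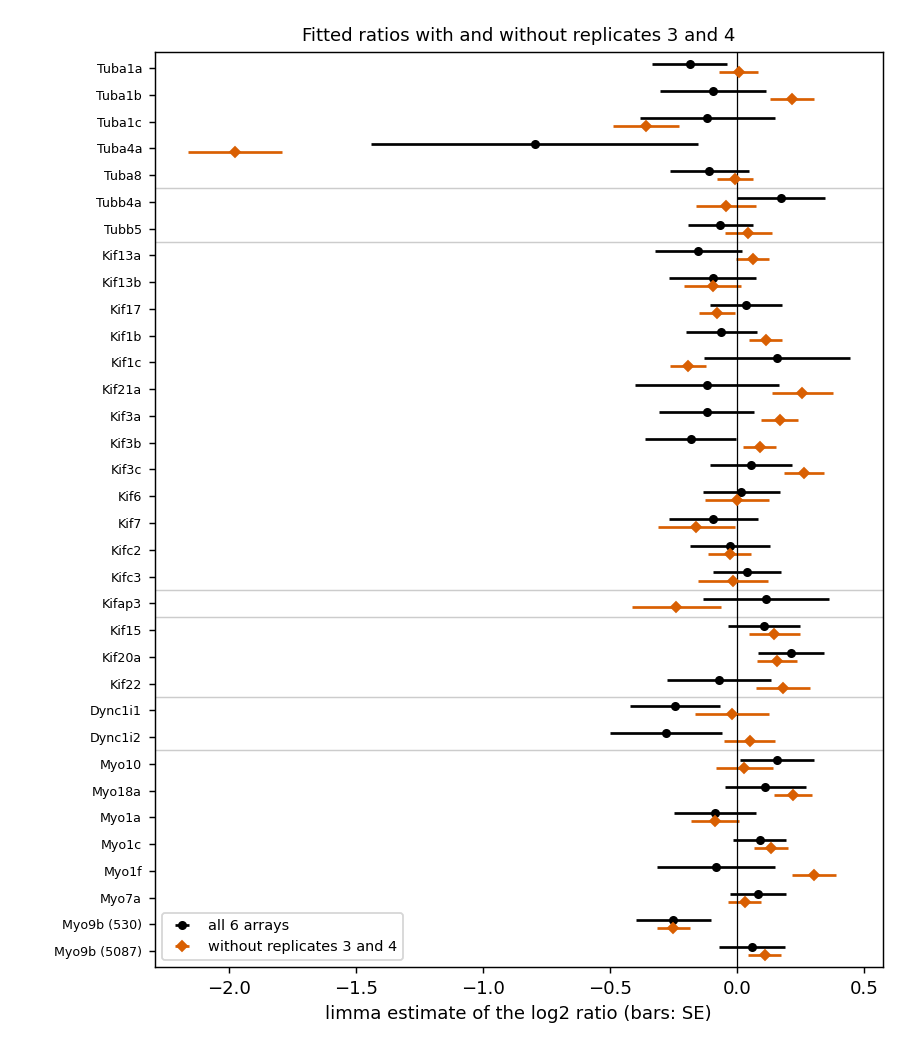
Fitted log2 ratio (x axis, bars are the SE) of the 34 tested probes (y axis, grouped by role) over all 6 arrays (black) and without replicates 3 and 4 (orange). Leaving out both arrays moves Tuba4a from -0.80 to -1.97 and Myo1f from -0.082 to 0.30, and leaves probe 530 of Myo9b, with no value on either array, at -0.25.

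Besides Kif14 and Dynlt1b, 4 members with some values were too sparse for the test. Kif12 had 0.021 on replicate 1 and -0.38 and -1.04 on replicates 5 and 6. Kif9 had -0.54 and -0.61 on replicates 5 and 6. Kif16b, a kinesin of early endosomes, had 0.59 and 0.97 on replicates 1 and 3, and Myo15, a myosin of inner ear hair cells, -0.22 and 0.059 on replicates 1 and 2.

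Partners of the microtubule and its motors were set beside the members from lists of 36 and 25 genes. With ratios averaged per gene, 0 of 4801 genes passed (0.0%), 84 had an unadjusted p under 0.05 (1.75%), and 56.3% of ratios lay below 0. Of 17 tested genes that bind microtubules or handle tubulin, 0 passed in limma and 1 had an unadjusted p under 0.05, with 6 ratios above 0 and 11 below and a median of -0.069. With replicates 1 to 3 turned, 12 lay above and 5 below with a median of 0.10. Clip2, which links membranes to microtubule plus ends, was at 0.46 ± 0.15 (SE, n = 6) with an unadjusted p of 0.0173 and an adjusted p of 0.922 in limma, and at 0.10 with replicates 1 to 3 turned. It was above 0 on 5 of 6 arrays. Stmn3 and Stmn1, tubulin-sequestering stathmins, were at -0.26 ± 0.12 (SE, n = 6) and -0.32 ± 0.22 (SE, n = 6), or 0.17 and -0.062 with replicates 1 to 3 turned. Of 11 tested genes of dynactin and motor partners, 0 passed and 1 had an unadjusted p under 0.05, with 1 ratio above 0 and 10 below and a median of -0.088. The other reading of the direction put 9 above and 2 below with a median of 0.073. The 1 above 0 was Mapk8ip1, a scaffold that binds kinesin-1, with 0.48, 0.30, 0.56, 0.43, 0.35 and 0.47 on replicates 1 to 6. Its ratio was 0.43 ± 0.11 (SE, n = 6) with an unadjusted p of 0.00455 and an adjusted p of 0.922 in limma. It was -0.016 with replicates 1 to 3 turned. Ndel1, a dynein regulator, was at -0.21 ± 0.16 (SE, n = 6) and Mapk8ip2, a relative of Mapk8ip1, at -0.17 ± 0.16 (SE, n = 6), or 0.24 and 0.015 with replicates 1 to 3 turned. On replicates 3 and 4 the medians of the partner list were -0.64 and -0.34, and those of the microtubule list -0.70 and -0.23. Those over all probes were -0.23 and -0.13. Of the conventional myosin list, Myh9, a non-muscle myosin heavy chain, was the 1 gene tested, at 0.16 ± 0.13 (SE, n = 6), or 0.075 with replicates 1 to 3 turned.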

How the data were processed

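Neocortex RNA of 6 null mutant embryos was measured on 6 arrays of 2 colours against 1 pool of wild-type RNA. The values, taken as log2 ratios, were deposited by the authors in 1 table; scanner, background correction, normalization, log base and direction were not given in the sources used here. Array means lay between -0.0061 and 0.0089. Precision is limited by the number of arrays. The targeted gene is not reported here.

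Gene symbols came from the platform annotation (6269 probes with 1 symbol, 6 with several, 581 with none). For 41 of 42 member probes the gene identifier was in RefSeq's table for GRCm38.p6, and 0 symbols needed an update. The 4958 probes with 2 or more values per dye orientation entered a linear model of intercept and orientation (limma 3.58.1, lmFit and eBayes, R 4.3.3). Tests were two-sided with Benjamini-Hochberg adjustment over all probes tested and a threshold of 0.05. The fit was tested on simulated data.

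Named are, in each role list, up to 4 members with all values by smallest p, the 6 members with the smallest p in each direction, all probes of those genes, and from lists of other genes at most 3 by smallest p. Any other member could be named, and Xist and Y-linked genes for the direction. Which other members are given array by array, with Kif17, Kif3c, Tuba1c, Tuba8 and Myo18a among them, was chosen after their values were seen, as were the genes whose promoters are printed. The members and lists were chosen with earlier results of these data known. Values of other lists are averages over the probes of a gene.

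Alternatives were replicates 1 to 3 turned, the intercept alone, arrays centred on their median, arrays also scaled by their median absolute deviation, complete probes, array weights, robust moderation (statmod 1.5.0), leaving out each replicate or replicates 3 and 4, averaging per gene, a threshold of 0.1, and Myo without a digit. Turning replicates 1 and 2 while leaving out 3 and 4 was added after the data were seen.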

Additional observations from a re-analysis of the deposited data

Results flagged for a closer look

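Of 35 sets of values checked, 6 had 1 array far from the others. In Kif1c it was replicate 3 at 1.60, in Kif13a replicate 3 at -1.07, in Kif22 replicate 3 at -1.08, in Kif21a replicate 3 at -1.67, in Myo7a replicate 3 at 0.37, and in Kif7, which had no value on replicate 3, it was replicate 5 at -0.81. The other 5 are values of replicate 3, the array with the largest SD.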

How the results depend on the processing

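The count of 0 members past the threshold was the same under every alternative run. The count over all probes was 2 with array weights and 1 without replicates 3 and 4, and 0 under the others. The median of the members, -0.068, was 0.024 with array weights, 0.029 without replicates 3 and 4 and 0.035 without these and with replicates 1 and 2 turned. Leaving out 1 replicate at a time gave 0 to 0 passing probes, 0 to 0 passing members and medians of -0.10 to 0.0097. These fits covered 26 to 34 members. Myo without a digit gave the same 42 members.

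Of 34 estimates, 0 changed sign with median centring or robust moderation, and without the dye term Kif6 -0.023 did. In the other settings the cause of a change of sign was not tested. With replicates 1 to 3 turned in sign, 19 changed, with Kif17 -0.36, Kif1c -0.021, Kifc3 -0.28, Kif13a 0.22, Myo1a 0.12, Kif22 0.13, Kif1b 0.21, Myo9b (probe 530) 0.014, Tuba1b 0.22, Kif3a 0.18, Kif3b 0.012, Myo1f 0.20, Myo7a -0.082, Kif20a -0.069, Kifap3 -0.13, Kifc2 0.16, Myo9b (probe 5087) -0.088, Kif21a 0.19 and Tuba8 0.36. With arrays centred and scaled, 9 changed, with Kif17 -0.042, Kif1c -0.072, Kif22 0.074, Kif1b 0.024, Tuba1b 0.072, Kif3a 0.029, Myo1f 0.098, Kifap3 -0.10 and Kif21a 0.091. With array weights, 15 changed, with Kif17 -0.072, Kif1c -0.19, Kifc3 -0.062, Kif13a 0.036, Kif22 0.12, Kif1b 0.096, Tuba1b 0.16, Kif3a 0.13, Kif3b 0.045, Myo1f 0.26, Kifap3 -0.27, Kifc2 0.0022, Tubb5 0.0042, Kif21a 0.23 and Tuba8 0.00013. Without replicates 3 and 4, 17 changed, with Kif17 -0.080, Kif6 -0.0014, Kif1c -0.19, Kifc3 -0.015, Kif13a 0.061, Kif22 0.18, Kif1b 0.11, Tuba1b 0.22, Tubb4a -0.044, Kif3a 0.17, Kif3b 0.088, Myo1f 0.30, Dync1i2 0.050, Kifap3 -0.24, Tuba1a 0.0057, Tubb5 0.043 and Kif21a 0.26. With replicates 1 and 2 turned and without replicates 3 and 4, 18 changed, with Kif17 -0.22, Kifc3 -0.30, Kif13a 0.078, Myo1a 0.12, Kif1b 0.16, Myo9b (probe 530) 0.014, Tuba1b 0.081, Kif3a 0.12, Kif3b 0.061, Kif3c -0.078, Myo1f 0.14, Myo7a -0.032, Tuba1c 0.16, Kifap3 -0.0052, Kifc2 0.16, Myo9b (probe 5087) -0.041, Tuba8 0.26 and Myo10 -0.093. Averaged per gene, Myo9b (probe 5087) -0.094 changed. Leaving out 1 replicate at a time changed the sign of 16 estimates, with Kif17 from -0.094 to 0.11, Kif6 from -0.054 to 0.11, Kif7 from -0.16 to 0.037, Kif1c from -0.20 to 0.35, Kifc3 from -0.039 to 0.14, Kif13a from -0.24 to 0.024, Kif22 from -0.24 to 0.15, Kif1b from -0.12 to 0.047, Tuba1b from -0.24 to 0.13, Kif3a from -0.21 to 0.056, Kif3c from -0.026 to 0.20, Myo1f from -0.22 to 0.14, Tuba1c from -0.36 to 0.059, Kifap3 from -0.12 to 0.36, Tubb5 from -0.16 to 0.020 and Kif21a from -0.35 to 0.22. Not every estimate could be refitted each time, since the test needs 2 values in each dye orientation. There were 26 estimates without replicate 1 and 26 without replicate 2, and 27 each without replicates 5 and 6. Kif13b, Kifc2, Myo1a and Myo9b (probe 530) were refitted only without replicate 3 or 4, on which they had no value, so these 4 could not change. No paired analysis was possible because each mutant was set against the same pool.

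Signal over background was not used here, so dim probes could not be told from bright ones. Estimates of members that lack replicate 3 or 4 are not comparable in SE with those that have both.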
